A study of Mus musculus with 8 samples.

Results

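Libraries coded GH were compared with libraries coded CH, 2 of each, out of the 8 RNA-seq libraries of a mouse series on neural stem cells. The cells came from the subventricular zone, where neural stem cells line the lateral ventricles of the brain. The labels give 2 genotypes, WT (titled control) and S1pr1 deletion (titled S1PR1-deficient), with 4 samples each. Each genotype received 2 preparations of high-density lipoprotein (HDL), titled ApoM-HDL and ApoM+HDL after apolipoprotein M. The labels number 2 replicates for every combination. The deposited table names its 8 columns of counts only by a code: a first letter C or G, a second letter H or V, and a digit. C was read as control because it begins the titles of the WT samples, and G was taken as S1PR1-deficient by elimination. The letters H and V could not be tied to either HDL preparation, so the comparison is described by its codes and no preparation is named. The labels used here do not state the allele, any Cre driver, the part of the gene deleted, the age of the mice, or the dose and time of treatment. Nothing says whether the replicates were separate cultures or animals, so the p-values measure only the spread between these libraries.

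S1PR1 is a G-protein-coupled receptor of the cell surface for sphingosine-1-phosphate (S1P), a lipid that travels in blood largely bound to apolipoprotein M on HDL. The receptor couples to inhibitory G proteins, and through them acts on the ERK and PI3K kinases and on the small GTPase Rac. Its relatives S1PR2 and S1PR3 also couple to G proteins that promote the assembly of actin filaments. That assembly frees cofactors of the transcription factor SRF, activates the YAP pathway and so switches on genes of the cytoskeleton.

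S1pr1 itself was examined first, because it checks the reading of C and G. It had 1016 and 1033 reads in the CH libraries and 970 and 848 in the GH libraries. As CPM (the read count scaled to a common, normalised library size) this was 25.4 and 23.2 in CH and 23.2 and 21.2 in GH, so the ranges of the groups overlapped. The log2 fold change of GH over CH was -0.13 (95% confidence interval -0.375 to 0.120, adjusted p = 0.71, edgeR quasi-likelihood test), a fold of 0.915 with an interval from 0.771 to 1.087. A loss of most S1pr1 reads in GH lies outside that interval. In the other 4 libraries S1pr1 stood at 20.7 and 16.0 CPM in CV and 22.2 and 22.4 CPM in GV. There the higher values were those of the G code. The log2 fold change was 0.28 (95% confidence interval 0.0314 to 0.532, edgeR unadjusted p = 0.0304, adjusted p = 0.0948). That interval lies above 0, the direction opposite to a loss in G. The gene lies on the minus strand of chromosome 3 (GRCm38, chr3:115710433-115715072 in GENCODE M21) and has 2 exons, with its whole coding sequence in exon 2. Exon 2, at 115710433-115713114, is much longer than exon 1, at 115714709-115715072. The table counts reads per gene and not per exon, so a deletion of a small part of the transcript may not appear in these counts. Such a deletion and a wrong reading of C and G cannot be told apart here, and neither was tested. The level of S1pr1 therefore did not bear out the reading of C and G. Every direction below is between libraries coded G and C, read as S1PR1-deficient and control. Of the 23 tested genes within 2 Mb of S1pr1, edgeR called 0 different between GH and CH, 1 had an unadjusted p under 0.05, and DESeq2 called 0.

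The other receptors of the family were low or did not pass the test. S1pr2 had 5.96 and 6.03 CPM in CH and 6.66 and 8.81 CPM in GH, without overlap (log2 fold change 0.37, adjusted p = 0.323). S1pr3 was between 0.125 and 0.336 CPM in these 4 libraries. S1pr5 had between 3 and 9 reads per library and S1pr4 was listed at 0, and both fell below the filter on low counts. How the counts were made is not given in the sources used here, so a listed 0, here and for the genes below, may come from the counting step and does not show that a transcript was absent.

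**Figure D1:**
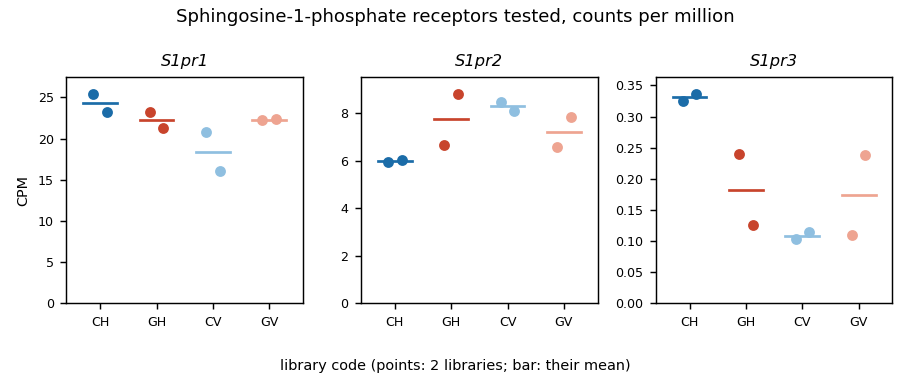
CPM (read count scaled to a common library size, vertical axis from 0) of the 3 S1P receptor genes that passed the filter, by library code. Points are single libraries and bars the mean of 2; S1pr1 in GH lies at 21.2 and 23.2 against 23.2 and 25.4 in CH.

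The whole table held 45777 genes, of which 17644 passed the filter and were tested. Library totals ranged from 39619305 to 45698186 reads. Neural stem cell genes were present in the 4 H libraries: Sox2 had 108 and 97.4 CPM in CH and 103 and 119 in GH, and Nes had 833 and 807 in CH and 683 and 668 in GH. Gfap, an intermediate filament gene of astrocytes and of stem cells in the adult zone, was between 0.225 and 0.852 CPM. Of the microglial markers, Csf1r, Aif1, C1qa, C1qb, C1qc, Ptprc and Trem2 were listed at 0 in these 4 libraries. The endothelial genes Cdh5 and Cldn5, the pericyte gene Pdgfrb and the fibroblast genes Lum, Col1a2 and Col3a1 were listed at 0 there as well. Of the markers of these other cell types that passed the filter, edgeR called 0 of 7 ependymal and 0 of 7 endothelial genes, with 0 and 1 at an unadjusted p under 0.05, and DESeq2 called 0 in both lists. Transcripts of the Y-linked Ddx3y were between 63.7 and 73.0 CPM in the same libraries, and Xist was at most 0.168 CPM.

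Between GH and CH, 320 genes were called at an adjusted p under 0.05 by edgeR. GH was higher for 134 of them, 0.759% of all genes tested, and lower for 186, 1.05%. An unadjusted p under 0.05 was reached by 2401 of the 17644 genes tested. The called differences were mostly small, with a median log2 fold change of 0.44 among the higher and -0.52 among the lower. A change of at least 2-fold was reached by 6 of the higher and 37 of the lower genes. Both GH libraries lay on one side of both CH libraries for every called gene, while the groups overlapped for 54.2% of all genes tested. The median log2 fold change over all genes tested was 0.0025. With 1 library left out, the counts fell to 31 higher and 49 lower without CH1, 38 and 101 without CH2, 81 and 135 without CV1, 75 and 126 without CV2, 10 and 35 without GH1, and 19 and 39 without GH2. Without GV1 or GV2 the counts did not fall. Against a minimum fold of 1.5, the counts were 0 higher and 14 lower.

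**Figure D2:**
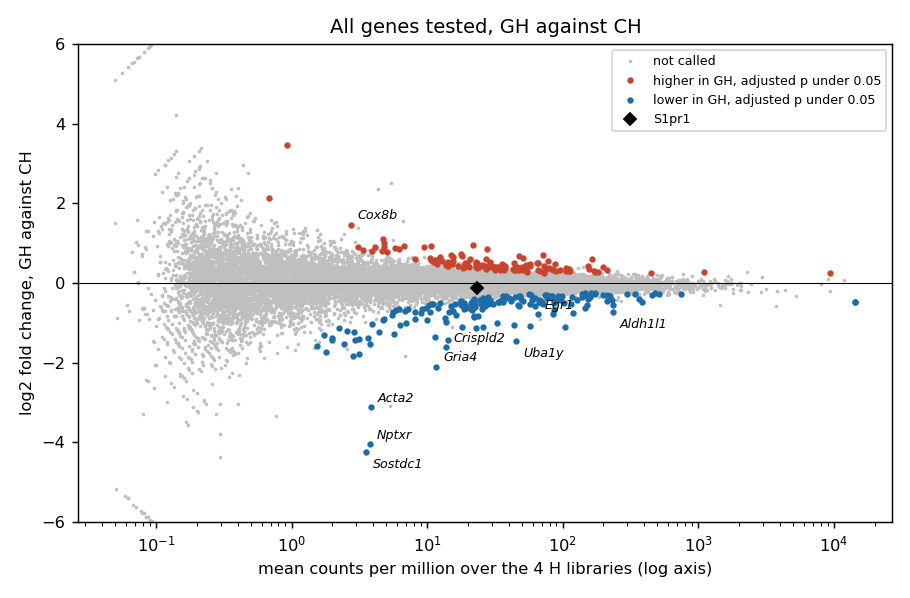
Log2 fold change of GH over CH (vertical axis) against mean CPM over the 4 H libraries (log horizontal axis) for the genes tested. Red and blue points are called genes, higher and lower in GH, and the diamond is S1pr1 at -0.13. Of the 320 called genes 3 lie outside the axes (under 0.05 CPM or beyond a log2 fold change of 6), among 59 genes in all.

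Among called genes with a mean of at least 1 CPM and a name beyond an identifier, the largest differences were decreases in GH, led by Sostdc1, Nptxr and Acta2. Sostdc1, a secreted antagonist of BMP and Wnt ligands, had 6.06 and 7.40 CPM in CH and 0.240 and 0.476 CPM in GH. Its log2 fold change was -4.23 (SE 0.285, adjusted p = 2.36e-05). The V libraries showed the same split, 7.99 and 6.83 CPM in CV against 0.199 and 0.143 in GV, so all 4 C libraries lay above all 4 G libraries. Nptxr, a membrane receptor for the synaptic pentraxins, had 8.73 and 5.54 CPM in CH and 0.599 and 0.250 in GH (log2 fold change -4.05, SE 0.400, adjusted p = 0.000235). Nptxr was low in the GH libraries alone, since CV held 8.43 and 11.0 and GV 5.52 and 9.67 CPM. The difference between its H and V fold changes was -3.68 (adjusted p = 0.00472). Gria4, which encodes a subunit of AMPA glutamate receptors, had 19.2 and 18.6 CPM in CH and 4.91 and 3.88 in GH, a log2 fold change of -2.10 (SE 0.155, adjusted p = 3.66e-05). In the V libraries Gria4 stood at 22.3 and 19.5 in CV and 6.09 and 4.50 in GV, again with every C library above every G library.

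A secreted protein, a chemokine, an ion channel and a signalling regulator were also among these losses, each high in CH. Crispld2, a secreted glycoprotein, had 21.8 and 19.8 CPM in CH and 7.26 and 6.33 in GH (log2 fold change -1.61, adjusted p = 3.76e-05). The CV and GV libraries lay near GH, at 4.68 and 5.19 and 6.31 and 6.52 CPM, so only CH was high. Ccl2, a chemokine that attracts monocytes, followed the same layout with 5.56 and 5.72 CPM in CH, 1.96 and 1.95 in GH, 2.37 and 1.34 in CV and 1.83 and 1.52 in GV (log2 fold change -1.52, adjusted p = 0.0103). The voltage-gated potassium channel gene Kcna1 did so too, with 4.45 and 4.37 CPM in CH and 1.51 and 0.951 in GH (log2 fold change -1.84, adjusted p = 0.00679) and 1.28 to 1.93 CPM in the V libraries. Rgs8, which shortens signals of inhibitory G proteins, had 3.10 and 4.06 CPM in CH and 1.22 and 1.28 in GH (log2 fold change -1.52, adjusted p = 0.0135).

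Other large losses ran along the C and G codes in both sets of libraries. Casp12, a caspase tied to the endoplasmic reticulum, had 5.76 and 4.02 CPM in CH and 1.56 and 1.25 in GH, against 5.19 and 3.83 in CV and 0.927 and 1.62 in GV. Gbx2, a homeobox transcription factor, had 2.88 and 1.75 CPM in CH and 0.647 and 0.901 in GH, against 1.83 and 1.80 in CV and 0.772 and 0.929 in GV. The H log2 fold changes were -1.79 for Casp12 (adjusted p = 0.00945) and -1.58 for Gbx2 (adjusted p = 0.0356). The noncoding transcript Foxd2os had 2.50 and 3.01 CPM in CH and 1.03 and 0.626 in GH (log2 fold change -1.73, adjusted p = 0.0119). It lies opposite Foxd2, and whether reads were counted by strand is not given in the sources used here, so its reads may include those of its neighbour. Uba1y, a Y-linked gene for a ubiquitin-activating enzyme, had 67.6 and 64.5 CPM in CH and 21.0 and 27.0 in GH (log2 fold change -1.46, adjusted p = 3.66e-05), with 78.6 and 68.6 in CV and 24.0 and 23.1 in GV. Its X-linked homologue Uba1 was not called (log2 fold change -0.13, adjusted p = 0.29), and reads shared by the pair make the Uba1y value uncertain.

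**Figure D3:**
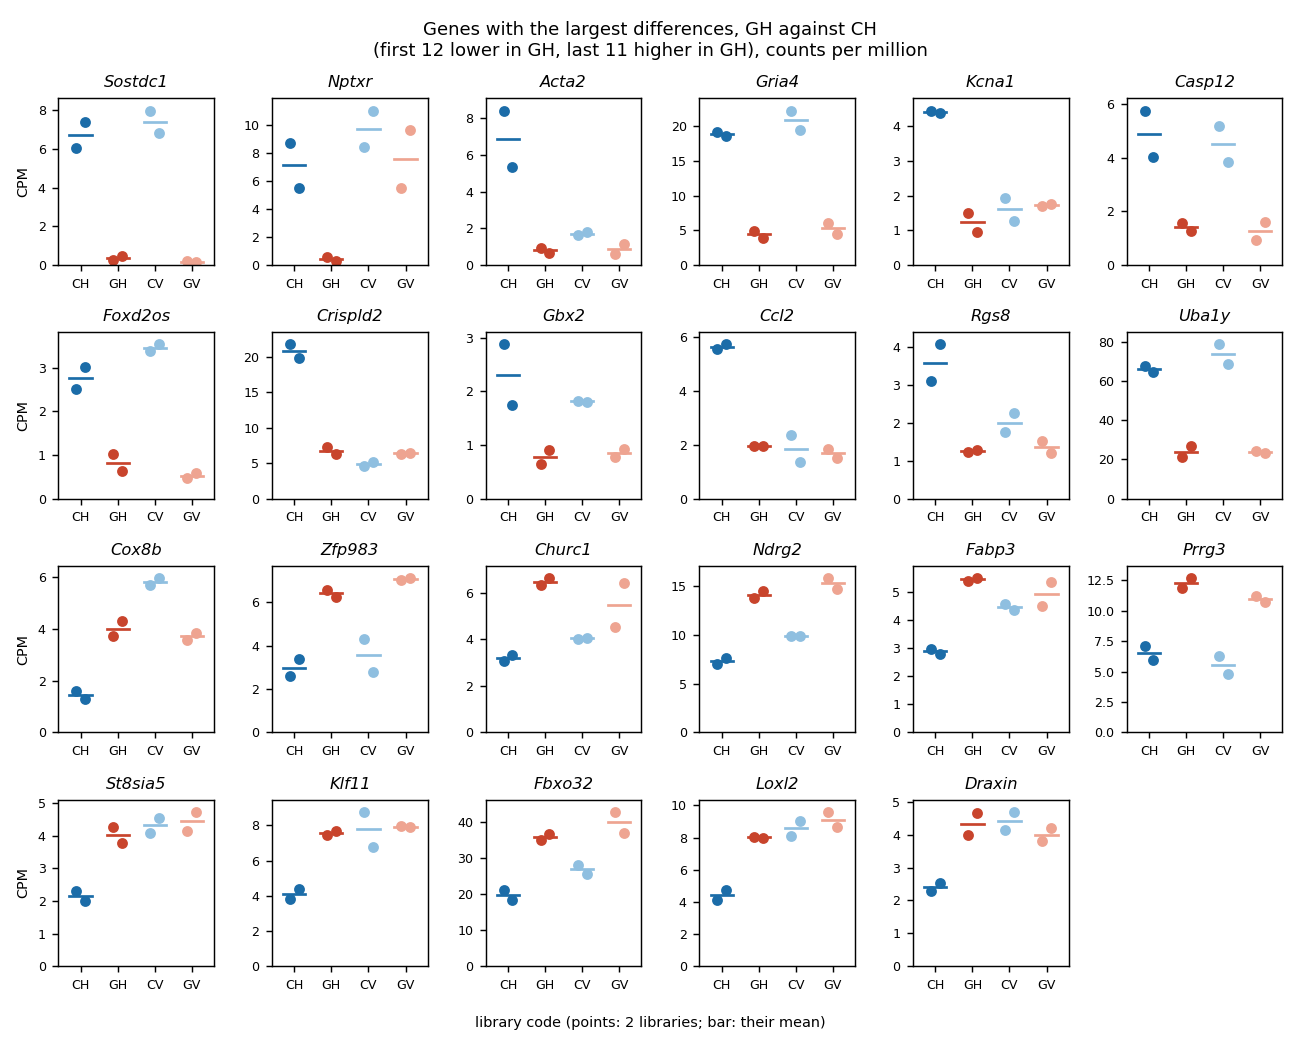
CPM (vertical axes from 0, one scale per gene) of the 12 genes with the largest decrease and 11 of the 12 with the largest increase in GH against CH among called genes with a mean of at least 1 CPM and a name beyond an identifier. Points are single libraries and bars the mean of 2. Sostdc1, Gria4 and Uba1y split all C from all G libraries, whereas Crispld2 is high in CH alone and Nptxr low in GH alone.

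The list of YAP and SRF targets, with genes of the actin cytoskeleton among them, had the largest share of called members. GH was lower for 6 of the 12 tested members and higher for 0, against 1.05% lower and 0.759% higher over all genes tested. The list's median log2 fold change was -0.27. Acta2, the actin of smooth muscle and myofibroblasts, had 8.43 and 5.36 CPM in CH and 0.934 and 0.651 in GH, a log2 fold change of -3.11 (SE 0.332, adjusted p = 0.000432). CH stood above the other 6 libraries, and the V libraries kept the order of the codes at a lower level, with 1.65 and 1.78 CPM in CV and 0.596 and 1.14 in GV. The H and V fold changes differed (adjusted p = 0.0246). Myl9, a regulatory light chain of myosin, had 8.38 and 7.87 CPM in CH and 2.59 and 4.08 in GH (log2 fold change -1.29, SE 0.226, adjusted p = 0.0135). Its V libraries lay between 2.29 and 3.42 CPM, overlapping GH.

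Genes for matricellular proteins of the YAP pathway fell as well. Ccn1 had 20.1 and 21.2 CPM in CH and 11.95 and 11.9 in GH (log2 fold change -0.79, adjusted p = 0.0135), with 6.71 and 9.43 in CV and 8.54 and 9.79 in GV. Ccn2 had 7.36 and 6.66 CPM in CH and 4.62 and 3.45 in GH (log2 fold change -0.79, adjusted p = 0.0478). For both genes CH was the highest code, and the H and V fold changes differed (adjusted p = 0.019 for Ccn1 and 0.0221 for Ccn2). Srf, the transcription factor itself, had 33.4 and 31.5 CPM in CH and 23.6 and 24.8 in GH (log2 fold change -0.42, adjusted p = 0.0295). Srf split the codes in both sets at like levels, with 31.9 and 32.0 CPM in CV and 20.8 and 23.7 in GV. Vcl, the adhesion protein vinculin, had 89.6 and 94.2 CPM in CH and 73.4 and 71.3 in GH (log2 fold change -0.35, adjusted p = 0.0149), against 72.0 to 76.2 CPM in the V libraries. Amotl2, Lats2, Tead1, Axl, Ajuba and Tpm1 were tested and not called, with log2 fold changes from -0.20 to 0.03. Ankrd1 and Actg2 were listed at 0 in the 4 H libraries, and Tagln and Cnn1 had at most 5 reads. Leaving out a library lowered the count of 6 to 1 without CH1, CH2 or GH1, to 2 without GH2, and to 4 without CV1 or CV2, and Acta2 passed in each of the 8 leave-one-out fits. Of cells that make these proteins in quantity, 3 of 9 pericyte and smooth muscle markers passed the filter. Their summed level was 65.4 and 56.1 CPM in CH and 61.9 and 55.8 CPM in GH, nearly all of it Notch3. Since Notch3 also belongs to the Notch pathway list, the sum does not measure such cells, and their part was not tested. edgeR and DESeq2 each called 0 of the 3, and 0 had an unadjusted p under 0.05. The smooth muscle gene Myh11 was at most 0.325 CPM and Pdgfrb was listed at 0.

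SRF binds a DNA element called the CArG box. Because members of this list fell, the 250 bases before the start site were searched for a perfect CArG box, a choice made after the values were seen; no other motif was searched. The windows came from RefSeq's GRCm38.p6 promoter table, which held 129 of the 186 lower genes, 104 of the 134 higher genes and 12567 of the 17644 genes tested. The box has the same form on both strands. It stood in 7 of the 129 lower genes (5.43%), in 0 of the 104 higher genes and in 176 of the 12567 tested genes (1.40%), against 1.47% of all 32851 windows of the table. A first search had covered the whole window of 300 bases, which adds 50 bases after the start, and had found 8 of the 129 lower genes, 0 of the 104 higher and 195 of the 12567 tested. The search was then narrowed so as to leave out bases of untranslated regions, which removed Anxa5. These shares are a description and were not tested, and a match is no evidence of binding. Of the 7 genes, Srf, Vcl and Myl9 belong to the list that prompted the search. Part of the share of 5.43% thus follows from that choice. The 7 stretches are shown because the share of 5.43% rests on them. Each reads 5′ to 3′ on the gene's own strand, with the box in capitals.
Srf, chr17:46556195-46556264, minus strand: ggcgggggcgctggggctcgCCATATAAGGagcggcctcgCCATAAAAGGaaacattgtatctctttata
Vcl, chr14:20929151-20929200, plus strand: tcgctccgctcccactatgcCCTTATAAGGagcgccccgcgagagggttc
Myl9, chr2:156775283-156775332, plus strand: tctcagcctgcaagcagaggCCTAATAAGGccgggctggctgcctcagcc
Cnn2, chr10:79988524-79988573, plus strand: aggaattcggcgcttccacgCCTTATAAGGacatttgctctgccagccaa
Lima1, chr15:99820167-99820216, minus strand: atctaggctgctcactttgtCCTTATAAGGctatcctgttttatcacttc
Myo1e, chr9:70207298-70207347, plus strand: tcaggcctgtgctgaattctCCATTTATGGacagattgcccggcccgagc
Rnd3, chr2:51149182-51149231, minus strand: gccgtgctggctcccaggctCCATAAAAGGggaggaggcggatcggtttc

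The promoter of Srf held 2 boxes, which begin 82 and 62 bases before the start site. Of the 4 genes outside that list, Cnn2 encodes an actin-binding calponin and had 10.2 and 8.41 CPM in CH and 5.25 and 4.05 in GH (log2 fold change -1.001, adjusted p = 0.0164). Lima1, an actin-bundling protein, had 40.2 and 41.2 CPM in CH and 33.2 and 31.8 in GH (log2 fold change -0.33, adjusted p = 0.0396). Myo1e, an unconventional myosin, had 31.5 and 26.9 CPM in CH and 20.8 and 19.9 in GH (log2 fold change -0.52, adjusted p = 0.0326). Rnd3, an atypical small GTPase that favours disassembly of actin stress fibres, had 82.5 and 88.1 CPM in CH and 67.5 and 70.6 in GH (log2 fold change -0.30, adjusted p = 0.0394), but 59.4 and 56.0 in CV and 70.8 and 71.6 in GV, where G was the higher code. Acta2 and Ccn1 had a window without a perfect box, and the table held no window for Ccn2.

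**Figure D4:**
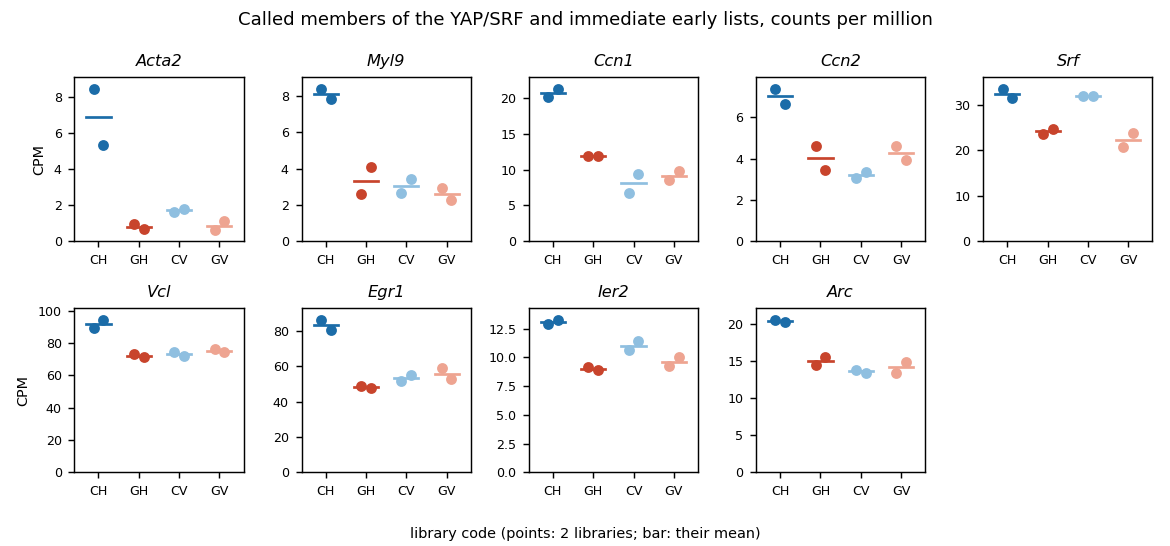
CPM (vertical axes from 0) of the 6 called members of the YAP and SRF list and the 3 called members of the immediate early list, by library code. Points are single libraries and bars the mean of 2. CH is the highest code in 8 of the 9 panels without overlap with any other library, and in the Srf panel CH and CV lie together above GH and GV.

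Immediate early genes are switched on within minutes by growth factors and receptors through ERK and SRF. In edgeR, GH was lower for 3 of the 18 tested members and higher for 0, against 1.05% and 0.759% of all genes tested. DESeq2 called 5 of the 18 lower and 0 higher, and 333 lower and 234 higher of all genes tested. The list's median log2 fold change was -0.35. Egr1, a zinc finger transcription factor, had 86.0 and 80.3 CPM in CH and 48.8 and 47.5 in GH (log2 fold change -0.79, SE 0.0759, adjusted p = 0.000207). Its V libraries, 51.9 and 55.1 in CV and 59.1 and 52.7 in GV, lay near GH, and the H and V fold changes differed (adjusted p = 0.00304). Ier2 had 12.9 and 13.2 CPM in CH and 9.17 and 8.86 in GH (log2 fold change -0.54, adjusted p = 0.0295). Arc, a cytoskeleton-associated protein of active synapses, had 20.4 and 20.2 CPM in CH and 14.4 and 15.5 in GH (log2 fold change -0.44, adjusted p = 0.0399). Egr1 passed in each of the 8 leave-one-out fits, and the count of 3 fell to 1 without CH1, CH2, GH1 or GH2. Junb and Fos did not pass, with log2 fold changes of -0.49 and -0.42 (adjusted p = 0.0591 and 0.0659). The feedback genes of the ERK pathway were called in 0 of 15 by edgeR, with 4 at an unadjusted p under 0.05, while DESeq2 called Fgfr3 higher and Dusp6 lower. Dusp6, a phosphatase that ERK induces and that inactivates ERK, had 735 and 754 CPM in CH and 652 and 647 in GH (log2 fold change -0.20, adjusted p = 0.0774). Its order was opposite in the V libraries, 573 and 553 in CV and 648 and 652 in GV, and the H and V fold changes differed (adjusted p = 0.0113).

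Genes of NF-kB signalling and of the extracellular matrix were called lower in GH where they were called. In edgeR, 2401 of all 17644 genes tested had an unadjusted p under 0.05, counting both directions. Of 12 tested genes of NF-kB feedback, chemokines and adhesion, 6 were lower and 0 higher at that level. By adjusted p, 2 of the 12 were called lower and 0 higher, against 1.05% and 0.759% of all genes tested. Besides Ccl2 this was Nfkb2, a subunit of NF-kB, with 23.3 and 24.0 CPM in CH and 16.0 and 15.3 in GH (log2 fold change -0.59, adjusted p = 0.00507), and 21.3 and 20.7 in CV against 15.8 and 15.1 in GV. Of 20 tested collagens, laminins and integrins, 2 were called lower and 0 higher, and 12 were lower at an unadjusted p under 0.05. DESeq2 called 5 of the 20 lower, and 333 of all genes tested. The median log2 fold change of these 20 was -0.21. Fibronectin (Fn1) had 32.5 and 24.2 CPM in CH and 15.2 and 16.3 in GH (log2 fold change -0.84, adjusted p = 0.00629). Lama4, a laminin chain, had 35.2 and 31.3 CPM in CH and 23.7 and 25.7 in GH (log2 fold change -0.43, adjusted p = 0.0276). Fn1 was also lower in GV than CV (15.3 and 13.8 against 20.9 and 20.5 CPM), whereas Lama4 was higher in GV (23.7 and 23.4 against 18.5 and 18.2 CPM, adjusted p of the difference between fold changes = 0.00797). Of 11 fibroblast and meningeal markers 3 passed the filter, and their summed level was 11.2 and 14.0 CPM in CH and 8.58 and 10.4 CPM in GH. edgeR called 0 of the 3, with 2 at an unadjusted p under 0.05, and DESeq2 called 0. The part of such cells in these results was not tested.

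Single markers of stem cells and glia were called, in both directions, against 0.759% higher and 1.05% lower over all genes tested. In bulk RNA, fewer cells of a type and less RNA per cell cannot be told apart. Aldh1l1, a folate enzyme used as an astrocyte marker and also made by neural stem cells, had 305 and 280.4 CPM in CH and 176 and 179 in GH. Its log2 fold change was -0.72 (SE 0.0599, adjusted p = 5.84e-05), and the V libraries split likewise into 338 and 323 in CV and 173 and 177 in GV. Glul, which makes glutamine from glutamate in astrocytes, had 230.5 and 236 CPM in CH and 192 and 188 in GH (log2 fold change -0.30, adjusted p = 0.0174). Agt, the precursor of angiotensin, was higher in GH at 37.1 and 31.4 CPM against 25.7 and 22.1 in CH (log2 fold change 0.52, adjusted p = 0.0369). Among 11 tested genes of astrocyte function, 2 were thus lower and 1 higher, and the median log2 fold change was -0.0045. Among 14 tested markers of neural stem cells and radial glia, edgeR called only Nes, an intermediate filament of these cells, and the median was -0.04. The log2 fold change of Nes was -0.28 (adjusted p = 0.0396), and -0.28 in the V libraries. By edgeR, Sox2, Sox9, Vim, Slc1a3 and Fabp7 were not called, with log2 fold changes between -0.24 and 0.19. DESeq2 called 2 of these 14 lower and 0 higher, and 2 of the 11 astrocyte genes lower and 2 higher. Of all genes tested it called 333 lower and 234 higher.

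Gad1 and Syt1, used as neuronal markers, and Cspg4, used as a marker of oligodendrocyte progenitors, were higher in GH. Gad1, which makes the transmitter GABA, had 37.3 and 42.2 CPM in CH and 59.5 and 63.3 in GH (log2 fold change 0.63, SE 0.0764, adjusted p = 0.0012). CV was at 59.4 and 62.6 and GV at 72.9 and 71.3 CPM, so CH was the lowest code. Syt1, the calcium sensor of synaptic vesicles, had 11.3 and 11.3 CPM in CH and 20.3 and 16.8 in GH (log2 fold change 0.72, adjusted p = 0.0107). Both were among 13 tested neuroblast and neuron markers, of which 2 were higher and 0 lower, against 0.759% and 1.05% over all genes tested. The log2 fold changes of these 13 ran from -0.49 to 0.72 with a median of -0.02. Cspg4, the NG2 proteoglycan of oligodendrocyte progenitors, had 146 and 129.9 CPM in CH and 166 and 186 in GH (log2 fold change 0.35, adjusted p = 0.0381), the 1 call among 9 tested genes of that lineage, whose median was 0.11. Olig1 and Olig2, transcription factors of the lineage, were not called (log2 fold changes 0.18 and 0.11).

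The largest increases in GH, among called genes with a mean of at least 1 CPM and a name beyond an identifier, were smaller than the largest decreases. Cox8b, a subunit of cytochrome c oxidase, had 1.60 and 1.30 CPM in CH and 3.71 and 4.28 in GH (log2 fold change 1.46, SE 0.197, adjusted p = 0.00279). In the V libraries it went the other way, with 5.68 and 5.95 CPM in CV and 3.57 and 3.83 in GV (adjusted p of the difference between fold changes = 0.00304). CH was thus the lowest code of the 4. Ndrg2, a protein of the N-myc downstream-regulated family that astrocytes make in quantity, had 7.08 and 7.65 CPM in CH and 13.8 and 14.5 in GH (log2 fold change 0.94, adjusted p = 0.000783). Fbxo32, a substrate-binding subunit of a ubiquitin ligase, had 21.1 and 18.4 CPM in CH and 34.9 and 36.5 in GH (log2 fold change 0.86, adjusted p = 0.000793). Both were also higher in GV than in CV, at 15.9 and 14.8 against 9.90 and 9.91 CPM for Ndrg2 and 42.8 and 37.0 against 28.0 and 25.6 for Fbxo32. The zinc finger gene Zfp983 and the transmembrane protein gene Prrg3 split all C from all G libraries too: Prrg3 had 7.08 and 5.97 CPM in CH, 11.9 and 12.7 in GH, 6.32 and 4.83 in CV and 11.2 and 10.7 in GV. Klf11, a Krüppel-like transcription factor, Loxl2, an enzyme that crosslinks collagen, and Draxin, a secreted guidance cue for axons, were low in CH alone. Loxl2, for example, had 4.13 and 4.73 CPM in CH against 7.96 to 9.60 CPM in the other 6 libraries (log2 fold change 0.85, adjusted p = 0.00945). Churc1, Fabp3 and St8sia5 were also among the 12 largest increases, with log2 fold changes from 0.91 to 1.02 and adjusted p from 0.0173 to 0.0340.

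Developmental pathways showed isolated calls, against 0.759% higher and 1.05% lower over all genes tested. Of 15 tested genes of BMP signalling, 2 were higher in GH and 0 lower: Bmpr1b, a type I receptor, with 45.0 and 44.9 CPM in CH and 59.2 and 58.5 in GH (log2 fold change 0.39, adjusted p = 0.0129), and the ligand Bmp7 with 44.3 and 40.5 in CH and 52.8 and 54.0 in GH (log2 fold change 0.33, adjusted p = 0.0411). Of 16 Notch pathway genes, edgeR called Notch2 alone, with 112 and 91.3 CPM in CH and 71.8 and 72.9 in GH (log2 fold change -0.49, adjusted p = 0.0135). DESeq2 called 1 of these 16 higher and 2 lower, and 2 of the 15 BMP genes higher and 1 lower. Of all genes tested it called 234 higher and 333 lower. Of 12 Wnt genes, Nkd1, a feedback inhibitor, alone was called. It had 17.0 and 14.9 CPM in CH and 21.5 and 23.2 in GH (log2 fold change 0.48, adjusted p = 0.0296) but was lower in GV than CV (24.4 and 27.2 against 34.8 and 37.7 CPM). Of 11 Sonic hedgehog genes, edgeR called 0, with 3 at an unadjusted p under 0.05, and DESeq2 called 1 lower, Smo, the transducer of the pathway.

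Genes that handle S1P and HDL lipids were called singly, and the counts are too small to set these lists apart from all genes tested, of which 0.759% were higher and 1.05% lower. The median log2 fold change was 0.03 for the S1P list, -0.03 for the G proteins, 0.03 for the LXR targets and 0.04 for cholesterol synthesis. Abcc1, a transporter that exports S1P among other substrates, had 34.96 and 28.5 CPM in CH and 24.4 and 21.4 in GH (log2 fold change -0.47, adjusted p = 0.0441), the only call among 14 tested genes of S1P synthesis, breakdown and transport. The kinases Sphk1 and Sphk2 and the lyase Sgpl1 were not called, with log2 fold changes of 0.21, -0.02 and -0.05. Spns2, an S1P exporter, had 3.68 and 4.17 CPM in CH and 6.18 and 5.63 in GH and did not pass (adjusted p = 0.0913). Gnao1, an inhibitory G protein alpha subunit of neural cells, had 14.8 and 14.4 CPM in CH and 9.70 and 10.9 in GH (log2 fold change -0.51, adjusted p = 0.0387), the only call among 19 G proteins and their regulators. In a fit on the 4 H libraries alone neither call held, with an adjusted p of 0.065 for Abcc1 and 0.0514 for Gnao1. Among 14 LXR targets and efflux genes, 1 was higher and 1 lower. Apoe, the apolipoprotein of glial lipid particles, had 136 and 128 CPM in CH and 209 and 188 in GH (log2 fold change 0.59, adjusted p = 0.00279), with CH below the other 6 libraries. Srebf1, a regulator of fatty acid synthesis, had 63.5 and 54.5 CPM in CH and 40.6 and 45.2 in GH (log2 fold change -0.46, adjusted p = 0.0382). The efflux transporter Abca1 was not called (log2 fold change 0.12). Of 24 genes of cholesterol synthesis edgeR called 0, with 2 at an unadjusted p under 0.05, and DESeq2 called 0.

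Proliferation genes were not called, which at the shares of 0.759% higher and 1.05% lower over all genes says little about lists of this size. For comparison, 2401 of the 17644 genes tested had an unadjusted p under 0.05 in edgeR. Of 21 genes of DNA replication edgeR called 0, with 2 higher and 2 lower at an unadjusted p under 0.05, and the median log2 fold change was -0.02. Of 20 mitotic genes edgeR called 0, with 6 lower and 0 higher at an unadjusted p under 0.05, and the median was -0.10. DESeq2 called 0 in both lists. Mki67 had 750.2 and 760.3 CPM in CH and 681 and 671 in GH (log2 fold change -0.16, adjusted p = 0.294), without overlap. All log2 fold changes in these lists lay between -0.23 and 0.20. Of 11 cell cycle inhibitors edgeR called 0, with 3 at an unadjusted p under 0.05, and DESeq2 called 1 lower, Cdkn1a. Of 11 tested interferon-stimulated genes edgeR called 0, with 2 at an unadjusted p under 0.05, and DESeq2 called 0. Gapdh (log2 fold change -0.25, adjusted p = 0.0399) was the 1 edgeR call among 19 glycolysis and hypoxia genes. Hspa5, the main chaperone of the endoplasmic reticulum, was the 1 edgeR call among 17 genes of the ATF4 and unfolded protein response (log2 fold change -0.28, adjusted p = 0.0204). DESeq2 called 2 lower and 0 higher in each of these lists.

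**Figure D5:**
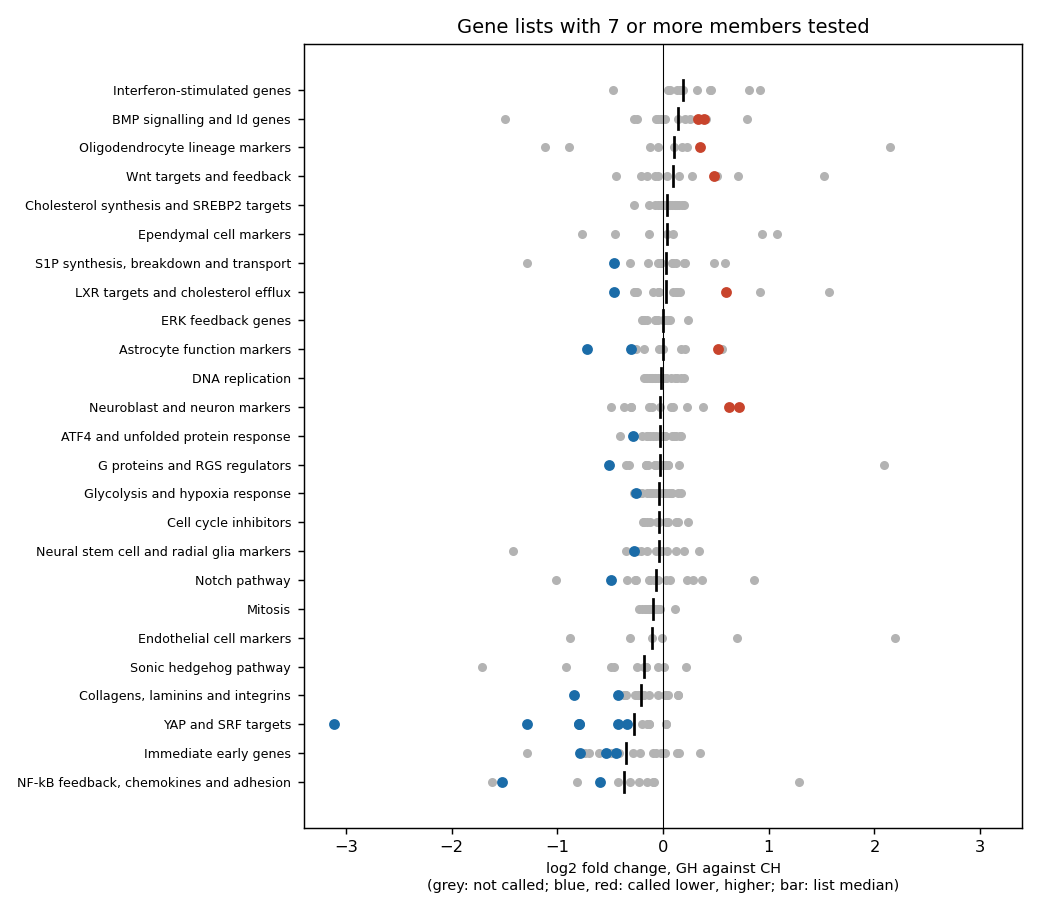
Log2 fold change of GH over CH (horizontal axis) for each tested member of the 25 gene lists with at least 7 tested members, ordered by their median (black bar). Blue and red points are members called lower and higher, and grey points were not called; 2 members lie outside the axis. The medians run from -0.37 for NF-kB genes to 0.19 for interferon-stimulated genes, and the 6 called members of the YAP and SRF list are all lower.

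The V libraries share no library with the H comparison and show how far its calls extended to them. In GV against CV, 2051 genes were higher (11.6% of those tested) and 2357 lower (13.4%). Of the 134 genes higher in GH than CH, 61 were also higher in GV than CV (45.5%), 5 were lower and 68 were not called. Of the 186 lower genes, 83 were also lower in GV (44.6%), 14 were higher and 89 were not called. The shared genes made up 2.97% of the higher and 3.52% of the lower V calls. The difference between the H and V fold changes was called for 694 genes in the higher direction (3.93% of those tested) and 602 in the lower (3.41%). Of the 134 higher genes, 30 had a called difference in the higher direction and 1 in the lower. Of the 186 lower genes, 53 had one in the lower direction and 5 in the higher. The H fold change enters both the call and the difference, which favours differences in its own direction.

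The called genes were sorted by how their 8 libraries lay, a layout looked at after the values were seen. Among the 186 lower genes, both CH libraries lay above all other 6 libraries for 125 (67.2%, against 7.40% of all genes tested), as for Acta2, Egr1 and Crispld2. All 4 C libraries lay above all 4 G libraries for 102 of the 186 (54.8%, against 6.64%), as for Sostdc1, Gria4 and Aldh1l1, and a gene may do both, as Acta2 did. Both GH libraries lay below all other 6 for 28 (15.1%, against 2.58%), as for Nptxr. Among the 134 higher genes, CH lay below the other 6 libraries for 108 (80.6%, against 6.78%), C below G throughout for 64 (47.8%, against 6.45%), and GH above the other 6 for 15 (11.2%, against 3.03%). The calls fixed that GH and CH did not overlap, so these shares are given without a test.

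Of the 50 called genes named by the rule stated with the processing, 12 passed in each of the 8 fits that left out 1 library. They were Acta2, Crispld2, Gria4, Nptxr, Sostdc1, Uba1y, Cox8b, Ndrg2, Fbxo32, Egr1, Gad1 and Aldh1l1. The other 38 lost their call in at least 1 such fit: 36 without GH1, 35 without GH2, 32 without CH1, 27 without CH2, 12 without CV1, 14 without CV2 and 0 without GV1 or GV2. A fit on the 4 H libraries alone gave 120 higher and 190 lower genes and ended 7 of the 50 calls, those of Abcc1, Arc, Ccn2, Draxin, Gbx2, Gnao1 and St8sia5, with adjusted p from 0.0504 to 0.065. None of the 50 changed direction in any of the 14 alternatives.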

How the data were processed

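Per the labels' protocols, a strand-keeping kit with depletion of ribosomal RNA turned total RNA into libraries. HISAT2 2.1.0, StringTie 2.1.3b, Trimmomatic and bcl2fastq 2.20.0 are named in the submitters' processing notes, as are the builds mm10 and GRCm38. The deposited table holds a read count for each gene and library, per the file headers; its 16 columns of other units were not used here. How the authors obtained whole counts, and whether by strand, is not given in the sources used here.

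The 8 count columns were grouped by the codes CH, GH, CV and GV, 2 libraries each. Genes passing filterByExpr were fitted in edgeR 4.0.16 (R 4.3.3, TMM, quasi-likelihood F-test, 4 residual degrees of freedom) with 1 mean per code and no covariate, and p-values were adjusted by Benjamini-Hochberg over all 17644 genes at a threshold of 0.05. All 8 libraries share 1 estimate of the spread. The contrasts were GH minus CH, GV minus CV and their difference. DESeq2 1.42.0 served as an alternative. The edgeR fit was also run on simulated counts in which all genes had 1 common spread. That run checked the code and does not measure the error rate in the real libraries. Totals of 39619305 to 45698186 reads, with 2 libraries a code, set the precision, and intervals cover the spread between these libraries.

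Named genes are S1pr1, the 12 called genes with the largest change in each direction (mean of at least 1 CPM over the 4 H libraries, groups not overlapping, identifier-only names left out), up to 4 called members of each of 30 lists (or, with none called, the 2 with the highest CPM) and genes within 2 Mb of S1pr1. Srf and Vcl, the motif genes, and other members given as not called were added after their values were seen. A few genes that the rule names are not reported here. The comparison, members and lists were chosen with earlier results of these data known. Sequences are from RefSeq (GRCm38.p6). Same-numbered columns did not deviate together (correlations of deviations from -0.0458 to 0.0103), so the digits were not taken as pairs.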

Additional observations from a re-analysis of the deposited data

Results flagged for a closer look

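The 24 genes with the largest changes in GH against CH were chosen by a value that also enters its difference from GV against CV. That choice favours differences in the direction of the H change. Over all genes tested, edgeR's test of the difference itself, adjusted over all genes, called 3.93% higher and 3.41% lower. By that test the H and V fold changes differed for 9 of the 24 genes. In 5 of them the H change was the lower one. The difference of log2 fold changes was -3.68 for Nptxr (adjusted p = 0.00472), -2.13 for Acta2 (adjusted p = 0.0246), -1.99 for Crispld2 (adjusted p = 0.000334), -1.95 for Kcna1 (adjusted p = 0.0181) and -1.39 for Ccl2 (adjusted p = 0.0407). In the other 4 the H change was the higher one. The difference was 2.11 for Cox8b (adjusted p = 0.00304), 0.98 for Draxin (adjusted p = 0.0408), 0.85 for Klf11 (adjusted p = 0.0365) and 0.76 for Loxl2 (adjusted p = 0.0344). CH stood apart from the other 6 libraries for 8 of these genes, and GH did for Nptxr.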

How the results depend on the processing

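In GH against CH, the 134 higher and 186 lower genes became 227 and 325 without a filter on low counts, 234 and 333 by DESeq2, and 0 and 14 against a minimum fold of 1.5. With a replicate block on the column digit, which the data do not bear out as pairs, they became 74 and 129, and the block also moved the 694 higher genes of the difference between H and V to 480 and the 602 lower to 393. The difference gave 877 and 1145 genes by DESeq2 and 778 and 1087 without a filter. Leaving out 1 library gave 10 to 173 higher and 35 to 242 lower genes for GH against CH, 23 to 831 and 32 to 676 for the difference, and 894 to 2050 and 1056 to 2405 for GV against CV. The leave-one-out fits, size factors, filter and block were added for GV against CV after seeing the data. Its counts stayed within 1.5-fold under the last 3 of these and under DESeq2. A fit that leaves a code with 1 library assumes that it varies like the others. Of the 50 called genes named by rule, 6 kept their call under all 14 alternatives, 44 lost it against the minimum fold, 11 with the block and 7 in the fit on the 4 H libraries. S1pr1 was not called under any of them. With 2 libraries a code, a difference below the threshold is not shown to be absent, and C and G remain a reading of the column names.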

Other observations

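Further called genes, chosen here after their values were seen, fall outside the naming rule. The transcription factor genes Six3 and Zic2 were lower in G under both second letters. Six3 had 6.03 and 6.39 CPM in CH and 3.38 and 3.28 in GH, against 7.04 and 6.74 in CV and 3.49 and 2.81 in GV (log2 fold changes -0.90 and -1.13). Zic2 had 2.13 and 2.80 CPM in CH and 0.743 and 1.25 in GH, against 3.11 and 2.92 in CV and 0.993 and 1.02 in GV. The calcium-binding membrane protein gene Anxa6 showed the same split, with 61.0 and 57.3 CPM in CH, 28.3 and 28.4 in GH, 73.6 and 71.9 in CV and 26.2 and 26.0 in GV (adjusted p = 2.36e-05 for H).

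Ptgs2, the inducible cyclooxygenase, and Hbegf, a ligand of the EGF receptor, went in opposite directions under the second letters. Hbegf had 139 and 132 CPM in CH and 95.5 and 93.6 in GH but 66.6 and 66.0 in CV and 87.3 and 87.7 in GV (log2 fold changes -0.52 and 0.40, adjusted p of their difference = 0.000334). Ptgs2 had 2.63 and 3.16 CPM in CH and 1.25 and 0.901 in GH but 0.540 and 0.592 in CV and 2.32 and 1.88 in GV (log2 fold changes -1.43 and 1.88, adjusted p of their difference = 0.00302).

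The 3 called genes beyond a fitted log2 fold change of 6 each held a group listed at 0. The noncoding gene Gm46829 was listed at 0 in CH1, CH2 and GV1 and had 596 and 538 reads in GH, 439 and 489 in CV and 471 in GV2, and how the counts were made is not given in the sources used here, so its listed zeros may come from the counting step. Gimap6 had 20 and 18 reads in CH and 0 in both GH libraries, and Styk1 had 7 and 19 in CH and 0 in both GH libraries.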
